A study of Saccharomyces cerevisiae BY4741 with 12 samples.

Results

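The set2-Y149F strain of Saccharomyces cerevisiae was compared with the WT over all 7409 rows of the expression table, which are 6632 annotated rows and 777 antisense transcripts. Of the 12 libraries of the series, 3 belonged to set2-Y149F and 3 to the WT, and the other strains were set2-Y236F and set2Δ. Both strains are in the BY4741 background, a MATa haploid laboratory line. The set2-Y149F strain lacks chromosomal SET2 and expresses the mutant gene from pRS415, a plasmid with a LEU2 marker, whereas the WT keeps its own SET2 and no plasmid is named for it. The series has no strain with unmutated SET2 on the plasmid, so that the substitution, the plasmid and the amount of SET2 RNA cannot be told apart. Cells were collected at an OD600 of 0.8 after growth at 30 °C, and the YPD or SD medium that the methods name is not assigned to strains. Polyadenylated RNA was sequenced strand by strand, and each strain is given as 1 mean of 3 libraries in FPKM, read fragments scaled to the length of a row and to the size of the library. No value per library was used, the depth is unknown, and no SD or test can be given, so all differences below describe 2 means without a replicate check. A difference is log2(FPKM + 1) in set2-Y149F minus that in the WT, which understates changes of weakly expressed rows, and 2-fold is a difference of 1.

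Set2 is the enzyme that methylates lysine 36 of histone H3 in budding yeast. It binds the elongating RNA polymerase II and marks the bodies of transcribed genes, where the methyl groups are read by the Rpd3S histone deacetylase and by chromatin remodelers. Without this mark, promoters hidden inside genes open and give rise to shortened sense and antisense RNAs. Tyr149 lies in the catalytic SET domain, and exchanging a tyrosine for a phenylalanine at such a site can alter how many methyl groups the enzyme can add. The study uses set2-Y149F as a strain that retains trimethylation of H3K36 and lacks dimethylation.

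The reference sequence around the exchanged codon shows what the strain name refers to, with the codon for Tyr149 in capitals (S288C reference of the sacCer3 build, RefSeq).
SET2 around the exchanged codon, chrX:103964-104002, minus strand: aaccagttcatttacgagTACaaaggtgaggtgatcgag

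SET2 itself was at 253 FPKM in set2-Y149F and 29.1 FPKM in the WT, an 8.71-fold higher level, beside 0.190 FPKM in set2Δ. The plasmid copy was thus read at a level well above that of the chromosomal gene. YJL169W, which matched no RefSeq gene and whose systematic name is next to that of SET2, was at 7.91 FPKM in set2-Y149F and 0.672 FPKM in the WT, while the neighbouring genes ASG7, with 43.5 FPKM in set2-Y149F and 30.9 FPKM in the WT, and ERG20, with 386 FPKM in set2-Y149F and 460 FPKM in the WT, were within 2-fold. LEU2, deleted in BY4741 and carried by pRS415, had 1775 FPKM in set2-Y149F and 3209 FPKM in the WT, so its RNA was abundant in both strains and did not separate a strain with a plasmid from one without, which goes against a WT with this deletion and no plasmid. HIS3 was at 89.1 FPKM in set2-Y149F and 167 FPKM in the WT. The MATa genes were expressed in both strains, among them MFA1 at 1150 FPKM in set2-Y149F and 1163 FPKM in the WT and STE2, the receptor for alpha-factor, at 146 FPKM in set2-Y149F and 183 FPKM in the WT. Genes of the MATalpha type were low, with STE3 at 3.11 FPKM in set2-Y149F and 4.61 FPKM in the WT and MF(ALPHA)2 at 3.09 FPKM in set2-Y149F and 1.02 FPKM in the WT, although SAG1 was at 17.2 FPKM in set2-Y149F and 16.7 FPKM in the WT.

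Most annotated rows were close to their WT level. Levels at least 2-fold higher in set2-Y149F were found for 237 of the 6632 rows (3.57%) and levels at least 2-fold lower for 137 (2.07%), and 6258 rows lay within 2-fold. The differences had a median of -0.04, and 5% of the rows lay below -0.75 and 5% above 0.85. Only 3054 of the 6632 rows were above their WT level, which is the background for counts of genes below it. By the mean of both strains, an order chosen after seeing the data, the fifth of rows with the lowest levels, up to 9.58 FPKM, held 97 of the 237 higher rows and 18 of the 137 lower rows, and the fifth with the highest levels held 62 higher and 37 lower rows. Ordered by the WT level alone, which also enters the difference, the fifth with the lowest levels held 121 higher and 10 lower rows. The medians of the 16 nuclear chromosomes ran between -0.11 for chromosome II and 0.02 for chromosome I. The share of rows at least 2-fold lower was 5.26% (15 of 285) on chromosome V and 2.64% or less on each of the others. Genes of the stress response, of acetate and lactate use and of stationary phase stood among the higher rows, and genes of amino acid synthesis, purine synthesis and ribosome production among the lower ones. At least 1 of the 50 gene lists held 75 of the 237 higher rows and 62 of the 137 lower rows, beside 1214 of all 6632 rows. Most rows past 2-fold in either direction were thus in no list.

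**Figure D1:**
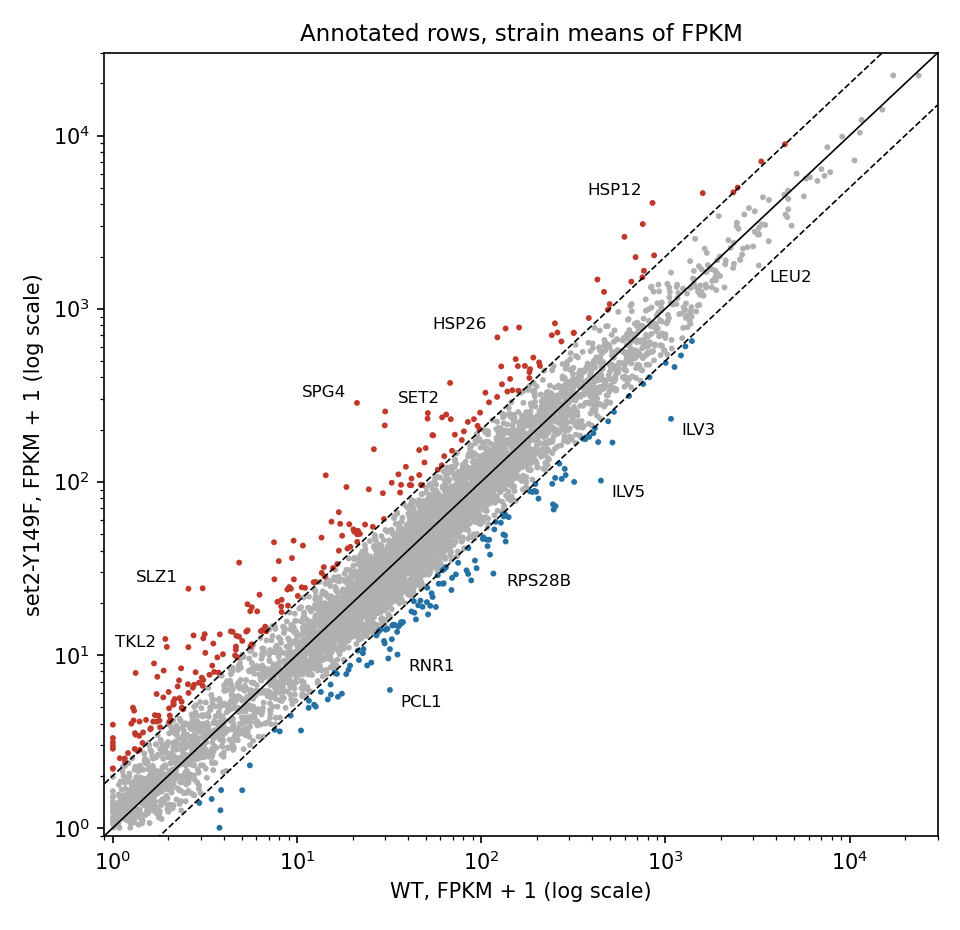
FPKM + 1 of each of the 6632 annotated rows in set2-Y149F (vertical axis) against the WT (horizontal axis), both log scales, as strain means of 3 libraries. The dashed lines mark 2-fold, with 237 rows at or above the upper line (red) and 137 at or below the lower one (blue).

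The general stress response was the list with the highest median. Its 42 genes, most of them known targets of the transcription factors Msn2 and Msn4, had a median difference of 1.39. In 28 of them the set2-Y149F level was 2-fold higher or more, and none was 2-fold lower. Only SDP1, a stress-induced phosphatase, was below its WT level, with 35.2 FPKM in set2-Y149F and 41.8 FPKM in the WT. Summed over the list, the FPKM was 44826 in set2-Y149F and 18292 in the WT. HSP12, which encodes a small membrane-protecting protein, was at 4081 FPKM in set2-Y149F and 850 FPKM in the WT. HSP26, a small heat shock protein that holds unfolded proteins, was at 681 FPKM in set2-Y149F and 121 FPKM in the WT. RTN2, a reticulon of the endoplasmic reticulum, was at 777 FPKM in set2-Y149F and 159 FPKM in the WT, and ALD3, a cytosolic aldehyde dehydrogenase, at 230 FPKM in set2-Y149F and 50.1 FPKM in the WT. ALD3 shares 29.9% of its 75-base windows with other genes, so its reads may have been divided among copies. The wall proteins YGP1, with 2599 FPKM in set2-Y149F and 598 FPKM in the WT, and SPI1, with 3080 FPKM in set2-Y149F and 752 FPKM in the WT, were among the most abundant of the genes that differed. CTT1, the cytosolic catalase, was at 326 FPKM in set2-Y149F and 104 FPKM in the WT, and XBP1, a stress-induced repressor, at 56.1 FPKM in set2-Y149F and 16.1 FPKM in the WT. UBI4, the polyubiquitin gene, was within 2-fold, at 572 FPKM in set2-Y149F and 440 FPKM in the WT.

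Msn2 and Msn4 bind the stress response element, AGGGG. In the 300 bases from 250 before to 50 after the start codon, AGGGG or its complement CCCCT was present in 46.4% (89) of the 192 coding genes at least 2-fold higher in set2-Y149F, in 9.02% (11) of the 122 at least 2-fold lower, and in 21.9% of all 5876 promoters. The general stress list held it in 64.3% (27 of 42), a share that also reflects how such lists are drawn up. Among the 15 largest differences the element was less common, in 4 of 14 promoters, and SPG4, SPG1, HSP26 and YGP1 had no match in this window. With 500 bases before the start codon the shares were 69.3% of the higher genes, 25.4% of the lower genes and 34.4% of all promoters. In that longer window the element was present in 9 of the 14 promoters of the largest differences (64.3%), so its lower share there depended on the window. These matches are a description of letters and not of bound sites. The promoters of HSP12, with matches starting at -232 and -190, and of TKL2, with a match at -77, are shown as examples, the match in capitals and the base before the start codon counted as -1.
HSP12 promoter, chrVI:107006-107305, plus strand: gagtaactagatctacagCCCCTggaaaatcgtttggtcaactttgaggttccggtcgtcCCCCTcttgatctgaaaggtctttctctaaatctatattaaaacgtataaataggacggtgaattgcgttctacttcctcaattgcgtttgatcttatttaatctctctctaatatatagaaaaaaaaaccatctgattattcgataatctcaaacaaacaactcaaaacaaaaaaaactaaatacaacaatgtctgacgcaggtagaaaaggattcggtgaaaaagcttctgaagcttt
TKL2 promoter, chrII:476388-476687, minus strand: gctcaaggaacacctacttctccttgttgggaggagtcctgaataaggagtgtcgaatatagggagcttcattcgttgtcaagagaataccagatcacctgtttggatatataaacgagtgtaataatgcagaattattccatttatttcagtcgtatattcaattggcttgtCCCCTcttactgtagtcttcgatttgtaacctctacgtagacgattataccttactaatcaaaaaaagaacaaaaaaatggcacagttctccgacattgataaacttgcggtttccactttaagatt

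Stress genes of the pentose phosphate pathway differed from their housekeeping partners. This pathway makes NADPH and ribose, and each of 4 of its steps has a major enzyme and a paralog that is induced under stress. TKL2, a transketolase, was at 10.1 FPKM in set2-Y149F and 0.961 FPKM in the WT, whereas TKL1 was at 204 FPKM in set2-Y149F and 353 FPKM in the WT. GND2, a phosphogluconate dehydrogenase, was at 65.6 FPKM in set2-Y149F and 15.9 FPKM in the WT, whereas GND1 was at 452 FPKM in set2-Y149F and 692 FPKM in the WT. NQM1, a transaldolase, was at 243 FPKM in set2-Y149F and 63.5 FPKM in the WT, whereas TAL1 was at 784 FPKM in set2-Y149F and 858 FPKM in the WT. SOL4, a lactonase, was at 465 FPKM in set2-Y149F and 172 FPKM in the WT, whereas SOL3 was at 165 FPKM in set2-Y149F and 203 FPKM in the WT. In all 4 pairs the form with the lower WT level was over 2-fold higher in set2-Y149F and the other was within 2-fold and below its WT level, and the median difference of the 11 genes in the pathway was -0.13. Of 7 other pairs with a partner induced under stress or poor carbon supply, chosen after values were seen, 5 had that partner at least 2-fold higher and the other within 2-fold, and in 2 pairs, HXK1 with HXK2 and COX5B with COX5A, both were within 2-fold. The cytochrome c gene CYC7 was at 726 FPKM in set2-Y149F and 258 FPKM in the WT, whereas CYC1 was at 138 FPKM in set2-Y149F and 142 FPKM in the WT. CYC7 was the more abundant of the pair in both strains. The Hsp110 chaperone gene SSE2 was at 365 FPKM in set2-Y149F and 129 FPKM in the WT, whereas SSE1 was at 709 FPKM in set2-Y149F and 662 FPKM in the WT. TSA2, NDE2 and CIT2 were the others. Among these 5 pairs only CYC1 was below its WT level, unlike the major forms of the pentose phosphate pathway.

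SPG4 and SPG1, genes needed for survival in stationary phase, had some of the largest differences in the table. SPG4 was at 284 FPKM in set2-Y149F and 20.1 FPKM in the WT, a 14.1-fold higher level and the largest difference of all annotated rows, 3.75. SPG1 was at 210 FPKM in set2-Y149F and 28.9 FPKM in the WT. FMP45, a membrane protein of the sporulating and stationary cell, was at 43.7 FPKM in set2-Y149F and 6.50 FPKM in the WT. Of the 20 genes in the stationary phase list, 5 were at least 2-fold higher, which included MOH1, with 47.7 FPKM in set2-Y149F and 16.6 FPKM in the WT, and FMP16, with 645 FPKM in set2-Y149F and 271 FPKM in the WT. The others were within 2-fold, although 15 of the 20 genes were above their WT level. Genes below it included SPG3, with 13.8 FPKM in set2-Y149F and 14.1 FPKM in the WT, and the vitamin B6 genes SNZ2 and SNZ3. The list had a median difference of 0.37.

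Transporters of acetate and lactate and enzymes that use acetate were higher in set2-Y149F. ADY2, an acetate transporter, was at 23.2 FPKM in set2-Y149F and 2.07 FPKM in the WT. JEN1, the lactate and pyruvate transporter, was at 153 FPKM in set2-Y149F and 25.1 FPKM in the WT. CIT2, the peroxisomal citrate synthase of the glyoxylate cycle, was at 248 FPKM in set2-Y149F and 50.3 FPKM in the WT, while the mitochondrial CIT1 was at 609 FPKM in set2-Y149F and 487 FPKM in the WT. ACS1, an acetyl-CoA synthetase repressed by glucose, was at 23.1 FPKM in set2-Y149F and 8.26 FPKM in the WT. Of the 32 genes of acetate use, the glyoxylate cycle and gluconeogenesis, 8 were at least 2-fold higher and none was 2-fold lower, with a median difference of 0.68. Key enzymes of the same pathways stayed within 2-fold, among them ICL1, the isocitrate lyase, with 37.8 FPKM in set2-Y149F and 22.6 FPKM in the WT, and MLS1, the malate synthase, with 6.90 FPKM in set2-Y149F and 7.21 FPKM in the WT. The fatty acid beta-oxidation list of 15 genes had a median of 0.46 with 4 genes 2-fold higher, among them POT1, the thiolase, at 12.6 FPKM in set2-Y149F and 3.37 FPKM in the WT, and CTA1, the peroxisomal catalase, at 18.6 FPKM in set2-Y149F and 4.38 FPKM in the WT. Glycolysis and fermentation, with 21 genes, had a median of -0.11 and no gene past 2-fold. HXT5, a hexose transporter of slowly growing cells, was at 12.6 FPKM in set2-Y149F and 3.47 FPKM in the WT, and no other of the 23 hexose transporter and sensor genes passed 2-fold.

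NCE103, the carbonic anhydrase, was at 767 FPKM in set2-Y149F and 135 FPKM in the WT. BDH2, a putative butanediol dehydrogenase, was at 371 FPKM in set2-Y149F and 66.7 FPKM in the WT, while its neighbour and paralog BDH1 was at 786 FPKM in set2-Y149F and 759 FPKM in the WT. SLZ1, which takes part in mRNA methylation during meiosis, was at 23.1 FPKM in set2-Y149F and 1.57 FPKM in the WT. The meiosis and sporulation list was low in both strains, with a median level of 3.27 FPKM in set2-Y149F and 2.45 FPKM in the WT, and only HOP1, a protein of the meiotic chromosome axis, and SPS100, a spore wall protein, of its 24 genes were 2-fold higher. HOP1 was at 12.6 FPKM in set2-Y149F and 4.30 FPKM in the WT. IME1, the inducer of meiosis, was at 17.5 FPKM in set2-Y149F and 10.8 FPKM in the WT, within 2-fold. PUT1, the proline oxidase, was at 89.3 FPKM in set2-Y149F and 23.5 FPKM in the WT. The remaining rows among the 15 largest were PUL3, with 6.84 FPKM in set2-Y149F and 0.328 FPKM in the WT, YPR145C-A, with 108 FPKM in set2-Y149F and 13.3 FPKM in the WT, YLR154W-E, with 33.1 FPKM in set2-Y149F and 3.85 FPKM in the WT, and YIL054W, with 11.3 FPKM in set2-Y149F and 0.926 FPKM in the WT.

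Chaperones differed gene by gene. Of the 22 heat shock chaperones, 4 were at least 2-fold higher, and the median difference was 0.28. BTN2, which sorts misfolded proteins, was at 821 FPKM in set2-Y149F and 250 FPKM in the WT. The nucleotide exchange factor FES1 was at 466 FPKM in set2-Y149F and 207 FPKM in the WT and the Hsp40 gene APJ1 at 94.3 FPKM in set2-Y149F and 40.7 FPKM in the WT. The major cytosolic Hsp70 SSA2 was at 1315 FPKM in set2-Y149F and 1371 FPKM in the WT. RPN4, the transcription factor that drives proteasome genes, was at 139 FPKM in set2-Y149F and 62.0 FPKM in the WT, and it was the only one of the 33 rows of the proteasome list past 2-fold. Trehalose and glycogen genes had a median of 0.32, and none of 21 passed 2-fold, the closest being GAC1, a phosphatase targeting subunit, with 65.3 FPKM in set2-Y149F and 33.9 FPKM in the WT.

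**Figure D2:**
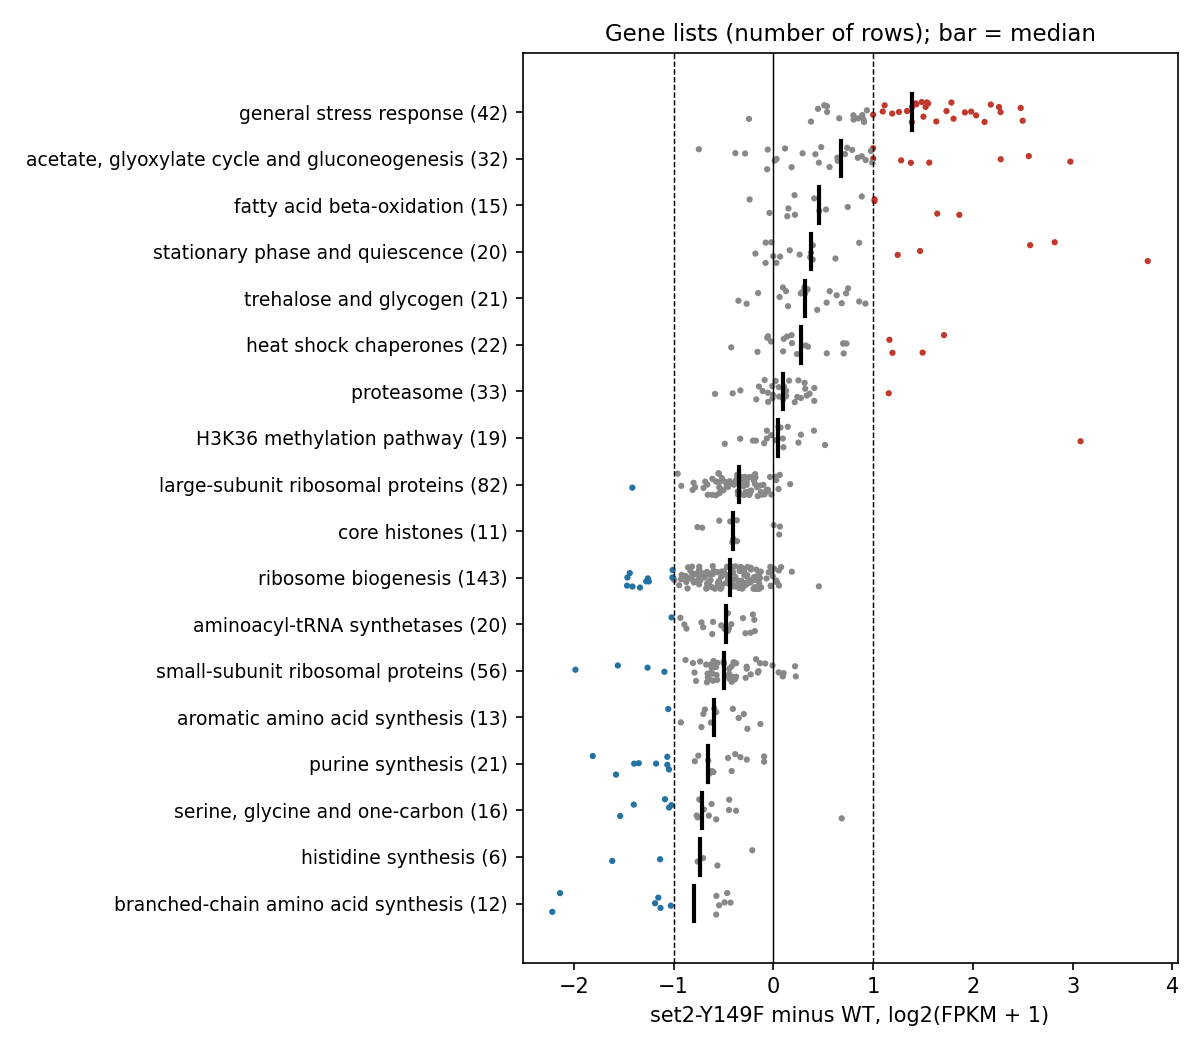
Difference in log2(FPKM + 1), set2-Y149F minus WT, of each row in 18 gene lists, with 1 point per row and the number of rows in parentheses. The black bars are medians and the dashed lines 2-fold, with the general stress response highest at 1.39 and branched-chain amino acid synthesis lowest at -0.80.

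Genes of amino acid synthesis were lower in set2-Y149F, most of all those for isoleucine, valine and leucine. Each of the 12 genes of branched-chain amino acid synthesis was below its WT level, 6 were at least 2-fold lower, and the median difference was -0.80. ILV3, the dihydroxyacid dehydratase of this pathway, was at 230 FPKM in set2-Y149F and 1071 FPKM in the WT, and ILV5, the reductoisomerase before it, at 100 FPKM in set2-Y149F and 445 FPKM in the WT. ILV1, the threonine deaminase that opens the route to isoleucine, was at 86.4 FPKM in set2-Y149F and 198 FPKM in the WT. ILV6, a regulatory subunit, was at 222 FPKM in set2-Y149F and 488 FPKM in the WT and OAC1, a mitochondrial carrier, at 52.0 FPKM in set2-Y149F and 117 FPKM in the WT. LEU1 and LEU4, enzymes of the leucine branch, were within 2-fold, at 546 FPKM in set2-Y149F and 796 FPKM in the WT for LEU1 and 473 FPKM in set2-Y149F and 703 FPKM in the WT for LEU4. LEU2, the enzyme that follows LEU1 in this branch, was plasmid-borne in set2-Y149F and is given above. All 6 histidine genes and all 13 aromatic amino acid genes were below their WT levels, with medians of -0.73 and -0.59. HIS1, which starts histidine synthesis, was at 167 FPKM in set2-Y149F and 514 FPKM in the WT. Arginine synthesis was divided, since ARG3, an ornithine carbamoyltransferase, was at 38.9 FPKM in set2-Y149F and 15.9 FPKM in the WT while ARG4, the argininosuccinate lyase, was at 311 FPKM in set2-Y149F and 633 FPKM in the WT. Lysine synthesis, with 9 genes and a median of -0.33, had no gene past 2-fold.

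The element TGACTC, which Gcn4 and Bas1 recognise, was sought in the same windows on both strands. It was present in 21.3% (26) of the 122 coding genes at least 2-fold lower in set2-Y149F, in 8.85% (17) of the 192 at least 2-fold higher and in 8.12% of all promoters. The amino acid lists held it in 46.2% (43 of 93). GCN4, the activator of these genes, is regulated by translation, which RNA levels do not show. ILV3 and ILV5, the most changed genes of their pathway, each had 1 match, in capitals below.
ILV3 promoter, chrX:466159-466458, minus strand: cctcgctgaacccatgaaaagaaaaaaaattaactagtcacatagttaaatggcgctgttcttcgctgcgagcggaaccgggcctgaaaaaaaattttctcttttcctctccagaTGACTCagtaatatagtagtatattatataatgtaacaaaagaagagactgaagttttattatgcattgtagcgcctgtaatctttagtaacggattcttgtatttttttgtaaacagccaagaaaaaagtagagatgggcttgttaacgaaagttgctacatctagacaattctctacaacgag
ILV5 promoter, chrXII:839204-839503, minus strand: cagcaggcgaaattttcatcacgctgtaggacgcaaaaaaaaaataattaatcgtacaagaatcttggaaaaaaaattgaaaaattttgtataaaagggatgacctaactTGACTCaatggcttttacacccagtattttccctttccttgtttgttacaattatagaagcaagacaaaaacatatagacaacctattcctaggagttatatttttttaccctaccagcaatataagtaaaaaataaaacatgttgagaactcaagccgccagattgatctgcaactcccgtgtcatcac

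Serine, glycine and folate genes and purine genes, which supply one another, were lower together. Of 16 genes of serine, glycine and folate metabolism 5 were at least 2-fold lower, with a median of -0.72. SHM2, the cytosolic serine hydroxymethyltransferase, was at 604 FPKM in set2-Y149F and 1282 FPKM in the WT. SER3, an enzyme of serine synthesis, was at 103 FPKM in set2-Y149F and 272 FPKM in the WT, and SER2, the phosphatase that completes it, at 28.3 FPKM in set2-Y149F and 83.9 FPKM in the WT. CHA1, the enzyme that breaks serine down, was the exception, with 169 FPKM in set2-Y149F and 105 FPKM in the WT. All 21 purine genes were below their WT levels and 8 were at least 2-fold lower, with a median of -0.65. ADE4, which performs the committed step, was at 30.6 FPKM in set2-Y149F and 93.3 FPKM in the WT. ADE5,7 was at 168 FPKM in set2-Y149F and 430 FPKM in the WT, and ADE17, which completes the ring, at 485 FPKM in set2-Y149F and 1001 FPKM in the WT. IMD2, IMD3 and IMD4 encode the enzyme that leads to GMP. IMD2 was at 71.2 FPKM in set2-Y149F and 252 FPKM in the WT, IMD3 at 108 FPKM in set2-Y149F and 286 FPKM in the WT, and IMD4 at 61.4 FPKM in set2-Y149F and 140 FPKM in the WT. These copies share 19.7%, 8.81% and 3.40% of their 75-base windows with other loci, so reads may have been exchanged among them. GGC1, the mitochondrial carrier of GTP and GDP, was at 98.6 FPKM in set2-Y149F and 318 FPKM in the WT.

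Genes of ribosome production were nearly all lower by a small amount. Of 143 ribosome biogenesis genes, 135 were below their WT level and 10 were at least 2-fold lower, with a median of -0.43, and none was 2-fold higher. NOP1, the methyltransferase of ribosomal RNA, was at 47.9 FPKM in set2-Y149F and 134 FPKM in the WT. NSR1, a nucleolar protein, was at 29.7 FPKM in set2-Y149F and 82.2 FPKM in the WT, ALB1, a shuttling pre-60S factor, at 14.99 FPKM in set2-Y149F and 43.2 FPKM in the WT, and DBP2, an RNA helicase, at 20.6 FPKM in set2-Y149F and 53.4 FPKM in the WT. NOP16, a pre-60S protein, was the gene of the list that was highest relative to the WT, with 165 FPKM in set2-Y149F and 120 FPKM in the WT. The small ribosomal subunit, with 56 genes, had a median of -0.50 and the large one, with 82 genes, -0.34, and the genes past 2-fold were 4 and 1, all lower in set2-Y149F. The 71 mitochondrial ribosomal protein genes had a median of -0.12 and no gene past 2-fold. All 20 aminoacyl-tRNA synthetase genes were below their WT levels, with a median of -0.47. Scaling set2-Y149F to the WT median, a shift of 0.08 on the log2 scale, left each of these medians below 0.

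The ribosomal protein genes past 2-fold were minor copies of duplicated pairs. RPS28B was at 28.4 FPKM in set2-Y149F and 115 FPKM in the WT, whereas RPS28A was at 1804 FPKM in set2-Y149F and 2111 FPKM in the WT. RPS9A was at 36.9 FPKM in set2-Y149F and 111 FPKM in the WT, whereas RPS9B was at 1018 FPKM in set2-Y149F and 1384 FPKM in the WT. RPL22B was at 48.5 FPKM in set2-Y149F and 131 FPKM in the WT, whereas RPL22A was at 704 FPKM in set2-Y149F and 784 FPKM in the WT. RPS27A was at 104 FPKM in set2-Y149F and 251 FPKM in the WT, beside RPS27B at 471 FPKM in set2-Y149F and 498 FPKM in the WT, and RPS7B at 190 FPKM in set2-Y149F and 405 FPKM in the WT, beside RPS7A at 347 FPKM in set2-Y149F and 523 FPKM in the WT. In each of the 5 pairs the copy with the lower WT level had the larger difference. These pairs were examined after the values were seen.

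Ribosome biogenesis promoters commonly carry the PAC element, CGATGAG, and the RRPE element, AAAAATTT. PAC was found in 65.03% (93 of 143) of the biogenesis promoters and RRPE in 82.5% (118 of 143), beside 7.15% and 14.4% of all promoters. Among the 122 coding genes at least 2-fold lower in set2-Y149F the shares were 13.1% and 25.4%, and among the 192 at least 2-fold higher they were 2.60% and 7.29%. Motifs were counted separately on both strands, and a base could belong to more than 1 of them. Of the biogenesis genes named above, NSR1 and DBP2 had 1 PAC match each and NOP1 had none. The ALB1 promoter, with PAC letters in capitals at -125 and -42, is shown as an example with 2 matches.
ALB1 promoter, chrX:189466-189765, plus strand: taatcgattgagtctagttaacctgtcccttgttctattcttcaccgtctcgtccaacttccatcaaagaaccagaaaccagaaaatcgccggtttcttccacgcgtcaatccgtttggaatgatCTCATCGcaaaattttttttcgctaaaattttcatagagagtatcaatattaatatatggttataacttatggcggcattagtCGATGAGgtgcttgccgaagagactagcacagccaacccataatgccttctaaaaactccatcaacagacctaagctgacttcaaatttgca

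G1 cyclins differed within their families. PCL1, a cyclin of the Pho85 kinase made in G1, had the lowest difference of all annotated rows, -2.35, with 5.26 FPKM in set2-Y149F and 30.9 FPKM in the WT. Its relative PCL2 was at 30.1 FPKM in set2-Y149F and 22.4 FPKM in the WT. CLN1, which drives the start of the cell cycle, was at 24.7 FPKM in set2-Y149F and 60.7 FPKM in the WT, while CLN2 was at 47.2 FPKM in set2-Y149F and 47.5 FPKM in the WT. RNR1, the large subunit of ribonucleotide reductase, was at 9.02 FPKM in set2-Y149F and 34.1 FPKM in the WT. CLB1, a mitotic cyclin, was at 16.8 FPKM in set2-Y149F and 40.8 FPKM in the WT, and SIC1, the inhibitor of B-type cyclin kinase, was at 175 FPKM in set2-Y149F and 96.6 FPKM in the WT. HO, the mating-type endonuclease gene, was at 4.42 FPKM in set2-Y149F and 10.6 FPKM in the WT. The list of 18 cyclins and regulators had 3 genes 2-fold lower, none 2-fold higher and a median of -0.21. Core histones were within 2-fold in all 11 rows, with a median of -0.40.

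**Figure D3:**
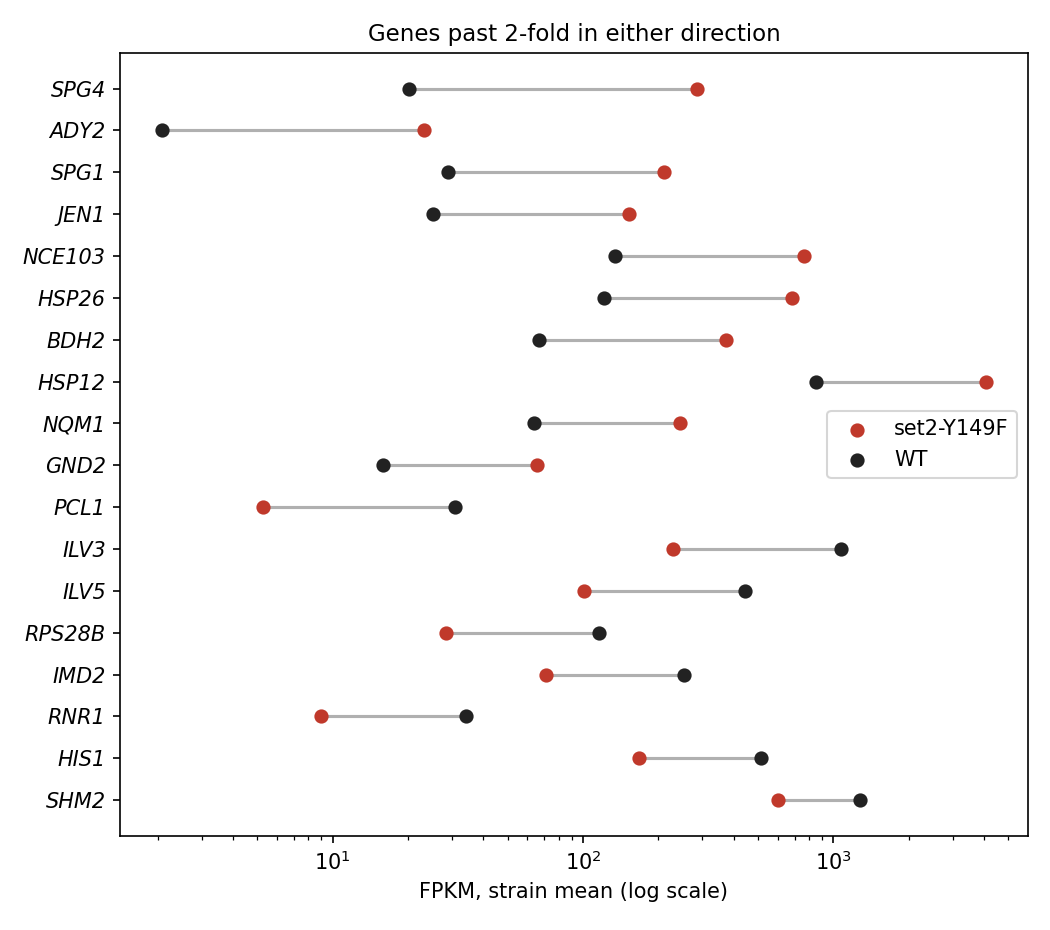
FPKM of 18 genes past 2-fold in set2-Y149F (red) and the WT (black), as strain means of 3 libraries on a log axis. The upper 10 genes were higher in set2-Y149F, with SPG4 at 284 FPKM in set2-Y149F and 20.1 FPKM in the WT, and the lower 8 were lower, with PCL1 at 5.26 FPKM in set2-Y149F and 30.9 FPKM in the WT.

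Metal, sterol and wall genes gave single large differences. ZRT1, the high-affinity zinc transporter, was at 72.9 FPKM in set2-Y149F and 244 FPKM in the WT, and ZPS1, a secreted protein that is made in low zinc, at 118 FPKM in set2-Y149F and 283 FPKM in the WT. ERG11, the sterol demethylase, was at 78.8 FPKM in set2-Y149F and 203 FPKM in the WT, and 25 of 26 ergosterol genes were below their WT level, with a median of -0.36 and 2 of them 2-fold lower. ALD5, a mitochondrial aldehyde dehydrogenase, was at 68.0 FPKM in set2-Y149F and 246 FPKM in the WT. TSC10, an enzyme of sphingolipid synthesis, was at 25.9 FPKM in set2-Y149F and 87.2 FPKM in the WT. PST1, a wall protein made under wall stress, was at 286 FPKM in set2-Y149F and 109 FPKM in the WT, and PIR3, a structural wall protein, at 234 FPKM in set2-Y149F and 60.3 FPKM in the WT. The other rows among the 15 lowest matched no RefSeq entry. YAR075W was at 8.51 FPKM in set2-Y149F and 30.3 FPKM in the WT, and whether its reads are shared with other loci was not tested. The tRNA genes tV(AAC)L and tL(UAG)L1 and YHR073C-B were weak, all under 5 FPKM in both strains.

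Genes that act in the H3K36 methylation pathway were near their WT levels apart from SET2. Among 19 genes, SET2 alone passed 2-fold, and the median was 0.05. RCO1 and EAF3, subunits of the Rpd3S deacetylase, were at 32.1 and 164 FPKM in set2-Y149F, against 22.1 and 153 FPKM in the WT. ISW1 and IOC4, of the Isw1b remodeler, were at 48.5 and 61.9 FPKM in set2-Y149F, against 45.2 and 50.9 FPKM in the WT. The 16 genes of the Paf1 complex, FACT and Spt elongation factors had a median of -0.05 and no gene past 2-fold. Of 19 genes of noncoding RNA decay 18 were below their WT level, with a median of -0.27, beside -0.04 over all annotated rows. AIR1, a subunit of the TRAMP complex that tags RNAs for the exosome, was at 7.66 FPKM in set2-Y149F and 18.4 FPKM in the WT. Its paralog AIR2 was at 26.3 FPKM in set2-Y149F and 27.9 FPKM in the WT.

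Beside the other strains, the named genes fell into several patterns, given here only as levels because each strain is set against the same WT libraries. SPG4 was at 284 FPKM in set2-Y149F, 297 FPKM in set2-Y236F, 42.0 FPKM in set2Δ and 20.1 FPKM in the WT, so it was high in both strains that express a mutant SET2 and much nearer to the WT in set2Δ with the empty plasmid. NCE103 was likewise high in both, with 767 FPKM in set2-Y149F, 580 FPKM in set2-Y236F, 155 FPKM in set2Δ and 135 FPKM in the WT. HSP26 was high in all 3 mutants, with 681 FPKM in set2-Y149F, 690 FPKM in set2-Y236F, 722 FPKM in set2Δ and 121 FPKM in the WT. ILV3 was at 230 FPKM in set2-Y149F, 244 FPKM in set2-Y236F, 428 FPKM in set2Δ and 1071 FPKM in the WT, which put the WT far above the mutants. PUL3 was highest in set2Δ, with 6.84 FPKM in set2-Y149F, 6.94 FPKM in set2-Y236F, 22.3 FPKM in set2Δ and 0.328 FPKM in the WT. YLR154W-E, which matched no RefSeq gene, was high in set2-Y149F alone, with 33.1 FPKM, against 2.63 FPKM in set2-Y236F, 2.05 FPKM in set2Δ and 3.85 FPKM in the WT. Whether reads of YLR154W-E are shared with other loci was not tested. With strain means only, its level in set2-Y149F could also rest on a single library. PUT1 was at 89.3 FPKM in set2-Y149F, 50.1 FPKM in set2-Y236F, 21.7 FPKM in set2Δ and 23.5 FPKM in the WT.

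The 777 antisense transcripts were mostly higher in set2-Y149F. These RNAs run against annotated genes, were assembled from antisense reads of set2Δ and were selected by the authors for being higher in set2Δ than in the WT. Their names stood out of step with the FPKM values in the deposited table, and each name below rests on sorting the names: the log2 of mean FPKM times width then correlated with the deposited log2 CPM of the named transcript at 0.905 over the 777, against -0.0247 as printed. As the WT libraries are the same ones used here, the direction of the differences is not independent of that selection. Levels at least 2-fold higher in set2-Y149F were found for 262 of them (33.7%) and levels 2-fold lower for none (0%), and 24 were below their WT level. The median level was 1.64 FPKM in set2-Y149F and 0.464 FPKM in the WT, the median ratio was 3.17, and the median difference was 0.71. By the plain ratio of FPKM, 602 were at least 2-fold higher, a count that includes many transcripts under 1 FPKM. A level of at least 1 FPKM was reached by 520 transcripts in set2-Y149F and 204 in the WT, and one of at least 10 FPKM by 43 in set2-Y149F and 9 in the WT. In set2-Y236F the median was 1.62 FPKM and in set2Δ it was 3.98 FPKM, and 742 of the 777 were lower in set2-Y149F than in set2Δ. Because the transcripts were assembled in set2Δ and kept for being high there, that order is not independent of the selection either.

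**Figure D4:**
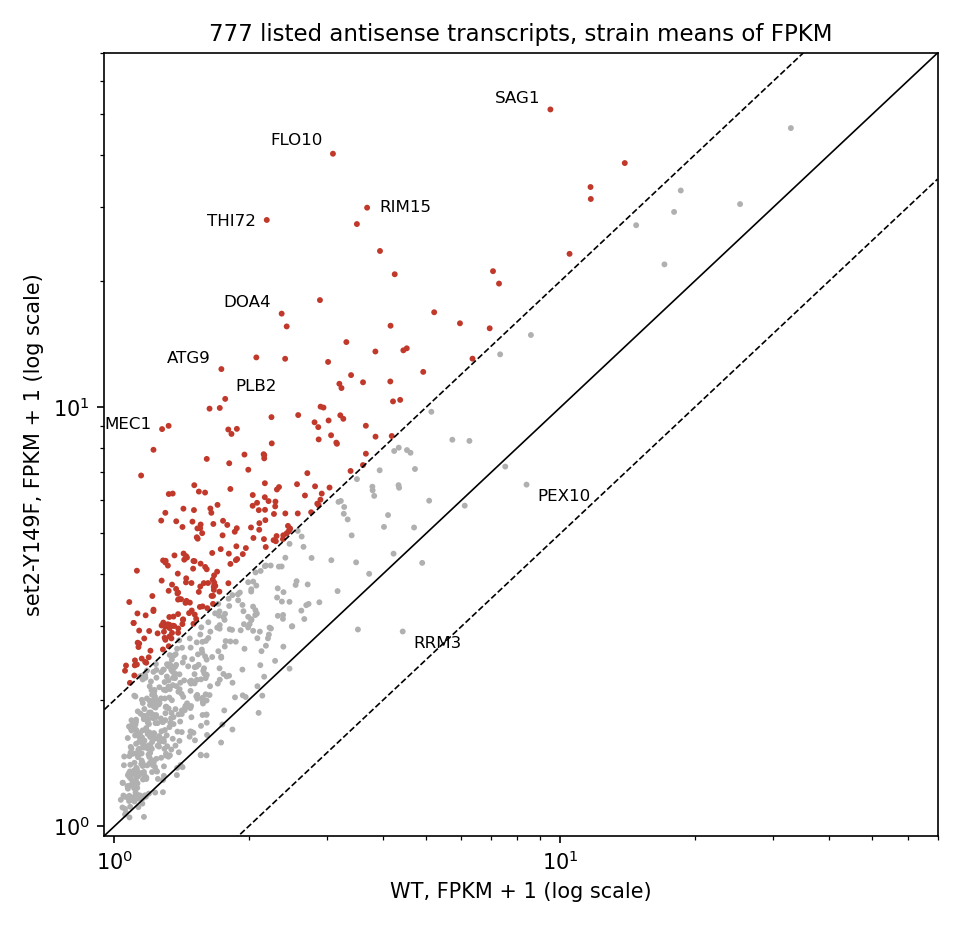
FPKM + 1 of each of the 777 antisense transcripts in set2-Y149F (vertical axis) against the WT (horizontal axis), log scales, strain means of 3 libraries, labelled by the sense gene. Red points are the 262 transcripts at or above 2-fold (upper dashed line), and no point reaches the lower dashed line.

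The largest antisense differences lay across genes with varied roles. Antisense RNA of FLO10, a cell surface adhesin, was at 39.2 FPKM in set2-Y149F and 2.09 FPKM in the WT, the largest difference of all, 3.70. That of THI72, a thiamine transporter, was at 27.0 FPKM in set2-Y149F and 1.20 FPKM in the WT. Antisense RNA of RIM15, the kinase that governs entry into stationary phase, was at 28.9 FPKM in set2-Y149F and 2.69 FPKM in the WT. For FLR1, a multidrug exporter, the values were 26.4 FPKM in set2-Y149F and 2.50 FPKM in the WT. For ATG9, a membrane protein of autophagy, they were 11.3 FPKM in set2-Y149F and 0.738 FPKM in the WT, and for DOA4, a deubiquitinating enzyme, 15.7 FPKM in set2-Y149F and 1.37 FPKM in the WT. The kinase gene MEC1 of the DNA damage checkpoint had 7.87 FPKM of antisense RNA in set2-Y149F and 0.279 FPKM in the WT. The remaining transcripts of the 15 largest opposed YCT1, CHL1, TDA7, MDL1, AAP1, PHO8, FLO5 and APC1, and their levels in set2-Y149F ran between 5.87 FPKM for APC1 and 22.6 FPKM for FLO5. The APC1 transcript had the largest ratio of this group, 39.6, on a WT level of 0.148 FPKM. FLO10 and FLO5 antisense share 10.9% and 14.3% of their 75-base windows with other loci, and THI72 antisense 1.49%, so that some of these reads may come from related genes.

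The 15 transcripts with the largest differences began between 15.2% of the way along the coding region for MEC1, counted from the start codon of the gene they oppose, and a point beyond its end for TDA7 and DOA4, with a median of 77.8%. The RIM15 transcript is preceded on its strand by another listed antisense transcript, at 3.07 FPKM in set2-Y149F and 0.124 FPKM in the WT, so its 5′ end is not the first place with antisense RNA. To show where antisense transcripts were annotated to begin, for the other 3 of the 4 largest differences, the 100 bases before the 5′ end are given in lower case and the first 50 bases of the transcript in capitals, read on the antisense strand of the sacCer3 reference.
FLO10 antisense 5′ end, chrXI:649039-649188, minus strand: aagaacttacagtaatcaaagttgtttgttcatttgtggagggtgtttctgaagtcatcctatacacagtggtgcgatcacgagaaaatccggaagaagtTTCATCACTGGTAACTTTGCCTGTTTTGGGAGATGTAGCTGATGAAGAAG
THI72 antisense 5′ end, chrXV:698946-699095, plus strand: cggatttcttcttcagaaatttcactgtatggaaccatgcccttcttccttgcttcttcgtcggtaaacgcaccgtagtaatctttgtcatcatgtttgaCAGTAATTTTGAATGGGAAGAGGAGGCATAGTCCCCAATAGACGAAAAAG
FLR1 antisense 5′ end, chrII:252849-252998, plus strand: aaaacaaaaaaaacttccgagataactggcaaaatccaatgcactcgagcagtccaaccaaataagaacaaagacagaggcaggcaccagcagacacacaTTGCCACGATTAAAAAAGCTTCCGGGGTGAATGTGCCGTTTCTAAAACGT

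At the other end, the antisense transcript of RRM3, a helicase, was at 1.92 FPKM in set2-Y149F and 3.43 FPKM in the WT, the lowest difference of the 777, -0.60. PEX10, a peroxisome biogenesis factor, had 5.54 FPKM of antisense RNA in set2-Y149F and 7.39 FPKM in the WT. For POL5 and AGP2, which each have 2 listed transcripts, the one with the lower difference is given. POL5 had 1.95 FPKM in set2-Y149F and 2.52 FPKM in the WT, and SPT14 3.25 FPKM in set2-Y149F and 3.90 FPKM in the WT. AGP2 had 0.865 FPKM in set2-Y149F and 1.11 FPKM in the WT. The other transcript of each gene exceeded its WT level, with set2-Y149F against WT values of 0.502 against 0.395 FPKM (POL5) and 0.763 against 0.237 FPKM (AGP2). Summed over both transcripts, POL5 stayed below the WT (2.45 against 2.91 FPKM), whereas AGP2 was above it (1.63 against 1.34 FPKM). Such a sum of values per length is not the FPKM of a gene, and the POL5 transcripts overlap. The levels in set2Δ were taken for the 5 transcripts with low differences. They were 5.91 FPKM for RRM3, 15.6 FPKM for PEX10, 7.70 FPKM for POL5, 11.9 FPKM for SPT14 and 2.70 FPKM for AGP2. The set2Δ levels were above the WT by the selection of the transcripts, and these 5 were named for their low differences in set2-Y149F.

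Long antisense transcripts differed more often than short ones. Of the 259 longest, with a median width of 1434 bp, 140 (54.1%) were at least 2-fold higher in set2-Y149F, with a median difference of 1.08. The count was 83 (32.0%) for the 259 of middle width and 39 (15.1%) for the 259 shortest, whose median width was 572 bp, with medians of 0.66 and 0.51. Long transcripts were also more abundant, with a median of 3.302 FPKM in set2-Y149F and 0.941 FPKM in the WT for the longest, beside 0.926 FPKM in set2-Y149F and 0.304 FPKM in the WT for the shortest. The median ratio, which is not compressed at low levels, was 3.80 for the longest, 3.28 for those of middle width and 2.68 for the shortest. Transcripts that covered 75% to 100% of the coding region were 2-fold higher in 51.0% of 96. Those that covered up to 25% were so in 23.2% of 207. The median ratio was nearly the same in these groups, 2.95 and 2.90, on median WT levels of 1.40 and 0.329 FPKM. The gap between these shares was thus not seen in the median ratio. Transcripts that began in the first 25% of the coding region were 2-fold higher in 23.3% of 73, with a median ratio of 2.84. Those that began in its last 25% were so in 38.0% of 266, with a median ratio of 3.69. Their median widths were 643 and 909.5 bp. Of 82 that began beyond its end, 41.5% were 2-fold higher, with a median ratio of 2.65. Start position was not separated from width or level.

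The level of the sense gene went the other way. Opposite the sense genes with the lowest WT levels, 111 of 259 transcripts (42.9%) were 2-fold higher and the median ratio was 3.88. Opposite those with the highest WT levels, 68 of 259 (26.3%) were 2-fold higher and the median ratio was 2.67. The median WT level of the antisense transcripts was 0.406 FPKM and 0.526 FPKM in these 2 groups. Strand made little difference, with 35.6% of 393 plus-strand and 31.8% of 384 minus-strand transcripts 2-fold higher. By chromosome the share ran between 21.4% of 14 transcripts on chromosome I and 41.2% of 17 on chromosome VI.

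**Figure D5:**
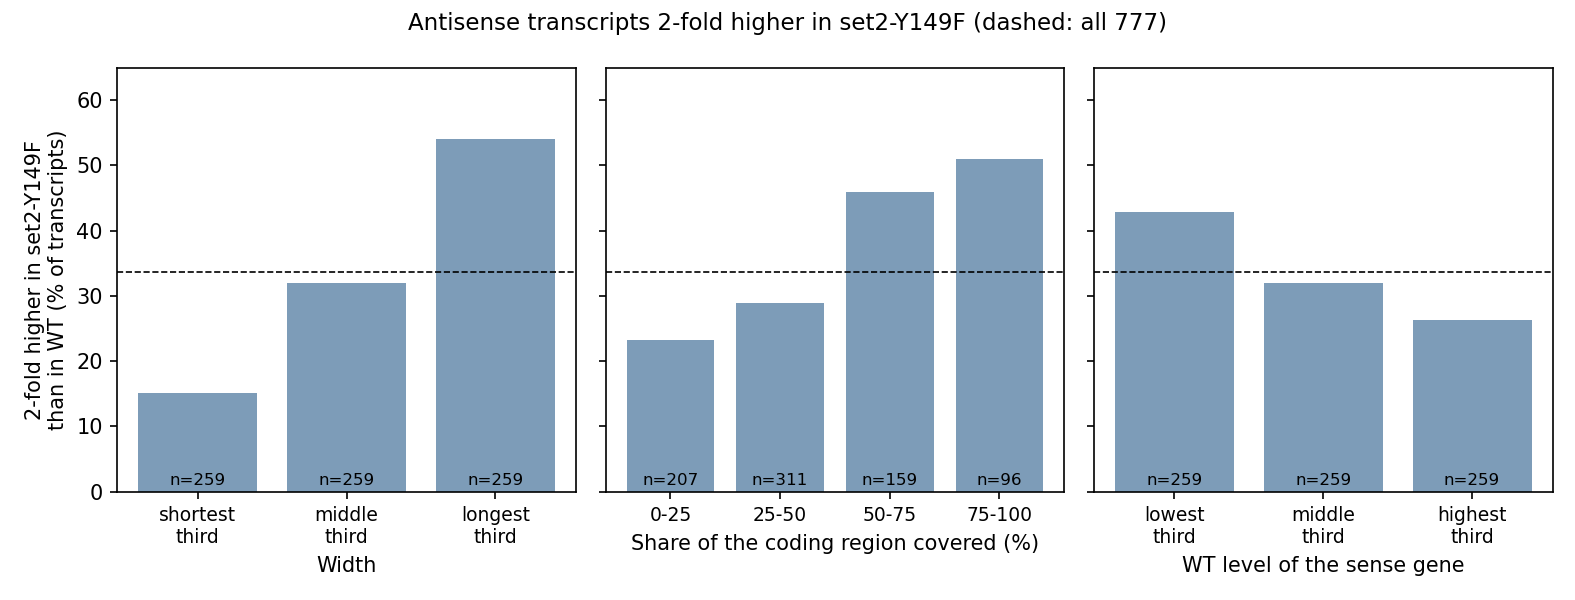
Percent of antisense transcripts at least 2-fold higher in set2-Y149F than in the WT, by width, by share of the coding region covered and by WT level of the sense gene, with the number of transcripts in each bar. The dashed line is the share over all 777, 33.7%, and the bars run between 15.1% for the 259 shortest and 54.1% for the 259 longest. By coverage, the median ratio of FPKM was 2.95 for 75% to 100% and 2.90 for up to 25%, so those bars also reflect level.

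Sense RNA of the same genes was mostly within 2-fold, as it was over all annotated rows. For 687 annotated rows with at least 1 listed antisense transcript, 684 of them in RefSeq, the sense difference had a median of -0.09. Of these 661 were within 2-fold, beside 6258 of all 6632 annotated rows, with 9 higher (1.31%) and 17 lower (2.47%) in set2-Y149F. Among the 257 whose summed antisense RNA was at least 2-fold higher, 4 sense genes were 2-fold higher (1.56%) and 4 were 2-fold lower (1.56%), beside 3.57% and 2.07% of all annotated rows. For genes with several transcripts this sum adds FPKM values without regard to width or overlap. None of the 15 genes under the largest antisense differences had a sense difference past 2-fold, a group too small to set against those shares. RIM15 sense RNA, for one, was at 19.0 FPKM in set2-Y149F and 20.1 FPKM in the WT.

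Of the 8 genes where both strands passed 2-fold, 4 had opposite directions. PLB2, a phospholipase, had summed antisense RNA at 13.6 FPKM in set2-Y149F and 1.19 FPKM in the WT, and sense RNA at 16.1 FPKM in set2-Y149F and 50.4 FPKM in the WT. INP2, which places peroxisomes, had antisense RNA at 8.38 FPKM in set2-Y149F and 2.26 FPKM in the WT, and sense RNA at 4.01 FPKM in set2-Y149F and 11.6 FPKM in the WT. BUD16 and the urea amidolyase gene DUR1,2 had the same arrangement, with sense RNA of BUD16 at 12.9 FPKM in set2-Y149F and 29.3 FPKM in the WT and that of DUR1,2 at 41.4 FPKM in set2-Y149F and 107 FPKM in the WT. In the other 4, HEF3, PST1, GTT2 and MUP3, sense and antisense were both 2-fold higher. HEF3, a translation elongation factor paralog, had antisense RNA at 4.85 FPKM in set2-Y149F and 0.703 FPKM in the WT and sense RNA at 18.01 FPKM in set2-Y149F and 7.20 FPKM in the WT, while its major paralog YEF3 was at 543 FPKM in set2-Y149F and 1022 FPKM in the WT. GTT2, a glutathione transferase, had antisense RNA at 3.23 FPKM in set2-Y149F and 0.561 FPKM in the WT and sense RNA at 48.9 FPKM in set2-Y149F and 20.5 FPKM in the WT.

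In 19 of the 687 genes at least 1 antisense transcript was more abundant per length than the sense RNA in set2-Y149F, against 2 in the WT. SAG1, the alpha-agglutinin gene of MATalpha cells, had the highest antisense level of all, 50.3 FPKM in set2-Y149F and 8.49 FPKM in the WT, with sense RNA at 17.2 FPKM in set2-Y149F and 16.7 FPKM in the WT. FLO10 had 39.2 FPKM of antisense RNA and 5.68 FPKM of sense RNA in set2-Y149F, against 2.09 and 3.02 FPKM in the WT. PSP2 had 37.2 FPKM of antisense RNA and 21.0 FPKM of sense RNA in set2-Y149F, against 12.9 and 31.2 FPKM in the WT. Others in this group were RIM15, THI72, FLR1, FLO5, SIZ1, DNL4, COX10 and the cyclin gene CLB6. The stronger CLB6 antisense transcript was at 2.49 FPKM and sense RNA at 1.57 FPKM in set2-Y149F, against 0.804 and 2.99 FPKM in the WT.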

How the data were processed

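The authors prepared polyadenylated RNA, dUTP strand-specific libraries and the deposited tables. Per the submitters' processing notes the build was sacCer3, with HTSeq 0.13.5, Cuffdiff, Cufflinks 2.2.1, TopHat2 2.1.1 and Trimmomatic 0.38 among the tools. The deposited FPKM sheet gives 1 mean per strain, so no library could be left out, no depth or SD was had and no test was run. The other sheets hold the authors' own comparisons and were not used, except identities, positions and the deposited log2 CPM for 1 check: antisense names stood out of step with their values, and the log2 of the mean FPKM times width correlated across transcripts with log2 CPM at -0.0247 as printed and 0.905 with names sorted, so sorted names were used.

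Differences used a pseudocount of 1 FPKM and a 2-fold threshold, with Python 3.11.15, pandas 2.3.3 and numpy 2.4.6. Steps were run on simulated strain means with large known changes in rows of at least 10 FPKM and no replicate noise. That run checks the code only and does not test weakly expressed rows or the order of the deposited names. RefSeq R64 matched 5904 annotated rows, and 728 had no entry and carry their systematic names. Lists are described by counts and medians. Members and 50 gene lists were chosen with earlier results of these data known. Named genes were the marker genes, the 15 largest differences in each direction, up to 5 members per list past 2-fold, extreme antisense transcripts, sense genes of antisense pairs past 2-fold and genes the paper names; other members and paralog pairs were chosen after their values were seen. Alternatives were pseudocounts of 0.1 and 10 FPKM, scaling to the WT median, a minimum of 1 FPKM, coding rows only and transcripts of at least 500 bp.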

Additional observations from a re-analysis of the deposited data

How the results depend on the processing

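In set2-Y149F 237 annotated rows were at least 2-fold higher and 137 lower, counts that became 380 and 209 with a pseudocount of 0.1 FPKM and 101 and 65 with one of 10 FPKM. The 262 antisense transcripts at least 2-fold higher were 543 with a pseudocount of 0.1 FPKM, 12 with one of 10 FPKM and 602 by the plain ratio, an alternative chosen after seeing the data. None was 2-fold lower with either pseudocount, and 1 was by the plain ratio, a SPA2 antisense transcript at 0.0533 FPKM in set2-Y149F and 0.165 FPKM in the WT. The median antisense difference of 0.71 was 1.42 with a pseudocount of 0.1 FPKM, 0.13 with one of 10 FPKM and 1.12 over transcripts with a mean of at least 1 FPKM. Scaling to the WT median gave 285 higher and 106 lower annotated rows and 280 higher antisense transcripts. It shifted list medians by up to 0.08 and changed the sign of 4 of 50, all of them within that shift of 0. List medians moved by over 0.1 under a pseudocount for 4 lists: with 10 FPKM the general stress response was at 1.14, acetate use at 0.42, hexose transporters at 0.049 and meiosis at 0.13, and with 0.1 FPKM hexose transporters were at 0.45 and meiosis at 0.58. Of 154 named rows, 53 were under 2-fold with the pseudocount of 10 FPKM and 15 with the scaling, among them ARG4, MES1 and MET6, and no named value past 2-fold changed its sign. No paired analysis was possible because the columns carry strain means and no replicate numbers, and for the same reason leaving out each replicate was not run. The depth behind the FPKM values is unknown, so a level under 1 FPKM has no stated precision.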
